A study of Mus musculus with 8 samples.

Results

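The amyloid precursor protein family and the secretases that cut it were followed through RNA of mouse embryonic fibroblasts (MEFs) with and without an extra copy of the region of mouse chromosome 16 that corresponds to human chromosome 21. The set was chosen by name and holds 8 genes of the 19493 mouse genes in the count table. They are the precursors App, Aplp1 and Aplp2, the beta-secretases Bace1 and Bace2, the gamma-secretase subunits Psen2 and Ncstn, and the alpha-secretase Adam10. All 8 had enough counts to be tested. App and Bace2 lie inside the duplicated region, and the other 6 genes lie on other chromosomes.

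RNAseq was carried out on 4 wild-type (WT) and 4 Dp1Tyb cultures of MEFs from E14.5 embryos. Dp1Tyb mice carry Dp(16Lipi-Zbtb21)1TybEmcf, a duplication running from Lipi to Zbtb21, so that each gene in it is present in 3 copies instead of 2. Both groups are given the strain C57BL/6J.129P2, neither received a treatment, and the methods describe littermate embryos whose head and internal organs were removed before the cells were grown. ERCC spike-ins, synthetic RNAs added in a fixed amount to a fixed number of cells, were sequenced with every library, so a value can be set against the cells that went in (spike-in scaling) or against all other mouse RNA (relative scaling).

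APP and its relatives are membrane proteins with a large outer part and a short cytosolic tail. Cleavage by an alpha-secretase releases the outer part and cuts within the amyloid-beta sequence, whereas cleavage by the beta-secretase BACE1 leaves a membrane stub from which gamma-secretase, a complex with a presenilin as its catalytic subunit, releases amyloid-beta. APLP1 and APLP2 are processed by the same enzymes but lack the amyloid-beta sequence, and an extra copy of APP is linked to the early dementia of Down syndrome.

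Libraries held between 17698900 and 26471758 counts, of which 0.882% to 1.65% came from spike-ins. An index of mouse RNA per spike-in RNA, the library size from relative scaling over that from spike-in scaling, ranged from 0.713 to 1.19 in WT and from 0.688 to 1.31 in Dp1Tyb, a spread within each genotype that enters each spike-in scaled value. Fibroblast markers were high in both groups, with summed levels of 22275 to 31750 CPM (counts scaled to a common library size) in WT and 26042 to 31549 CPM in Dp1Tyb. Neuronal markers, of which 9 of 12 had counts, summed to 100.7 to 125 CPM in WT and 78.7 to 129 CPM in Dp1Tyb. The median gene had a log2 fold change between Dp1Tyb and WT of 0.11 in spike-in scaling and 0.01 in relative scaling, and the changes below are to be read against these medians.

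App (ENSMUSG00000022892) encodes the precursor of amyloid-beta and lies on the minus strand of chr16:84949685-85173766 (GRCm38, the build of the deposited counts). It was the most highly expressed of the 8 genes. The relative level of App was 879, 832, 818 and 796 CPM in WT replicates 1 to 4. It was 1360, 1418, 1356 and 1311 CPM in Dp1Tyb replicates 1 to 4. Each Dp1Tyb library was above each WT library, with means of 831 ± 34.9 CPM in WT and 1361 ± 44.0 CPM in Dp1Tyb (SD, n = 4 each).

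In edgeR's quasi-likelihood test with relative scaling the log2 fold change of App was 0.71 (SE 0.10, 95% interval 0.49 to 0.93), a fold change of 1.64 (1.41 to 1.90). This interval holds the log2 value of 0.58 that 3 copies against 2 would give. The unadjusted edgeR p was 2.86e-05, rank 5 among 16470 genes, and the p adjusted over all genes by Benjamini-Hochberg was 0.0903. DESeq2, run on the same counts with its own size factors, gave App a log2 fold change of 0.72 and an adjusted p of 2.46e-16, so the call for App depended on the tool.

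With spike-in scaling the level of App was 21783, 15349, 12195 and 19453 normalised counts in WT replicates 1 to 4. It was 34221, 20376, 29826 and 35994 in Dp1Tyb replicates 1 to 4. All Dp1Tyb libraries except replicate 2 were above every WT library. The log2 fold change was 0.81 (SE 0.32, 95% interval 0.17 to 1.44), with an unadjusted edgeR p of 0.0124 and an adjusted p of 1.00. The wider interval went with the larger spread between libraries of one genotype, since the SD was 4265 around a mean of 17195 in WT and 6984 around 30104 in Dp1Tyb.

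**Figure D1:**
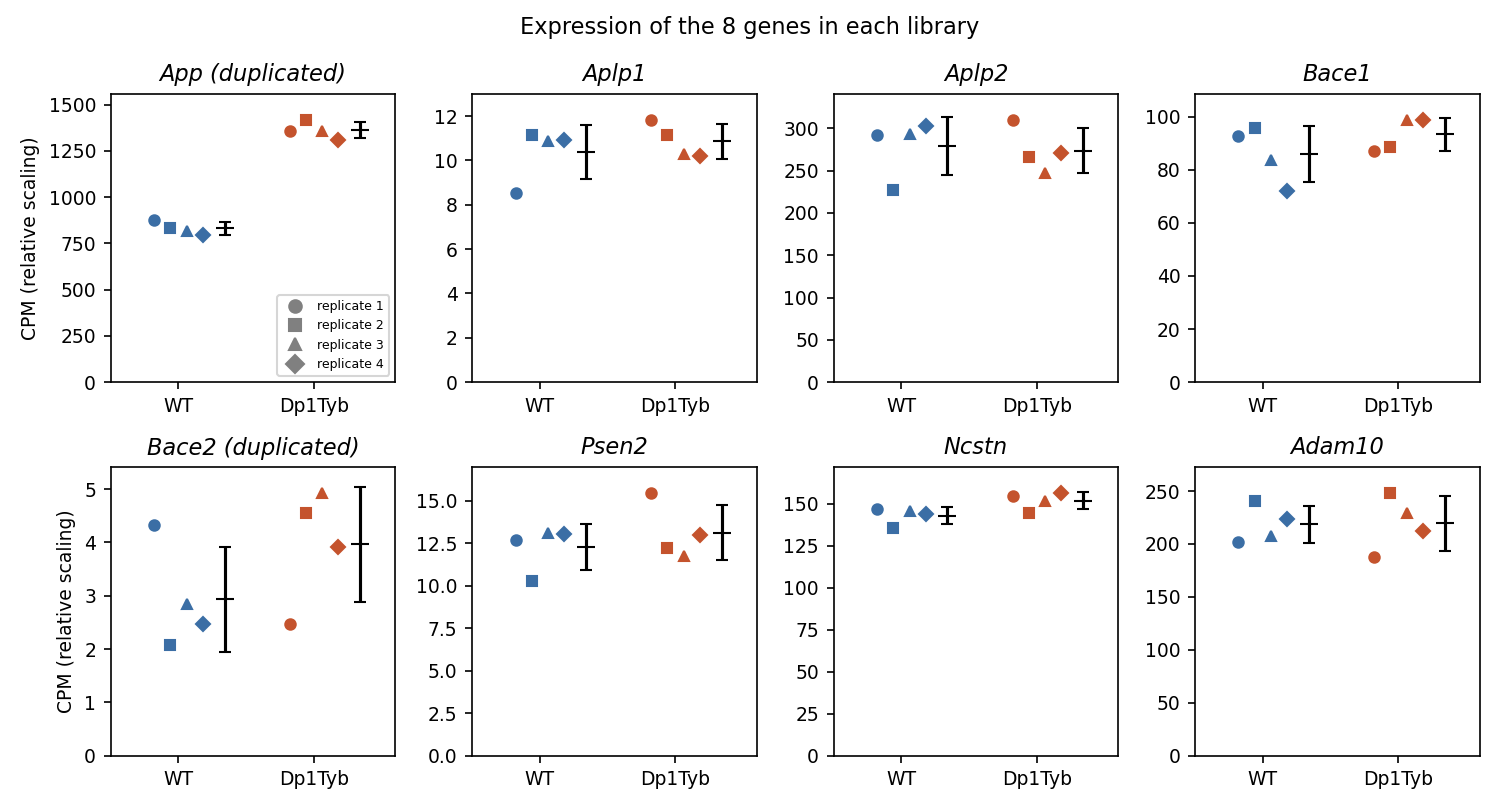
Level of each of the 8 genes in every library, in CPM with relative scaling, with axes from 0. Points are libraries, marker shape is the replicate number, and the bars are the mean and SD of 4 libraries. For App, Dp1Tyb libraries start at 1311 CPM and WT libraries end at 879 CPM, whereas the groups overlap for the other genes.

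None of the 8 genes passed an adjusted p of 0.05 in edgeR, under either scaling. Among all genes 0.0182% were called with relative scaling and 0.0121% with spike-in scaling, so few calls were made anywhere. At an unadjusted p under 0.05, 1 of the 8 genes, App, passed in edgeR under each scaling, against 4.27% of all genes with relative scaling and 1.17% in spike-in scaling. Counting higher genes alone, the shares were 1.74% and 0.850%. All 8 log2 fold changes were above 0 in spike-in scaling, as were those of 70.4% of all genes. In relative scaling 7 of 8 were above 0, against 51.2% of all genes, and the signs of Aplp1, Aplp2 and Adam10 turned when single libraries were left out. DESeq2 called App with relative scaling, where it called 0.363% of the 14869 genes to which it gave an adjusted p, and called 0 of the 8 with spike-in scaling, where it called 0.0122% of 16454 such genes. Of the 54 genes that DESeq2 called with relative scaling, 37 lie in the duplicated region. App was also the single member with relative levels that did not overlap between the genotypes. Among all genes, 1.64% were higher in Dp1Tyb without overlap. Such a separation was not particular to App, since other tested genes of the duplicated region were also higher without overlap, while the rest there overlapped.

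Markers of macrophages, a cell type that MEF cultures can hold, had a lower summed level in Dp1Tyb, and App was measured in the same RNA. Of 6 macrophage markers 5 were tested, and all 5 were lower with relative scaling at an unadjusted edgeR p under 0.05, although 0 passed after adjustment, while 2.53% of all genes were lower by that rule. With spike-in scaling 1 of the 5, Ptprc, was lower at that p, as were 0.316% of all genes. The sixth marker, Aif1, had too few counts to be tested, with 4 to 11 in WT and 5 to 9 in Dp1Tyb. Its mean level was 0.360 CPM in WT and 0.387 CPM in Dp1Tyb. The summed level of the 6 was 93.5 to 117 CPM in WT and 51.8 to 82.0 CPM in Dp1Tyb. Ptprc, which encodes the leukocyte surface protein CD45 and was picked for its values, was at 13.7 to 15.1 CPM in WT and 7.08 to 8.25 CPM in Dp1Tyb, and no marker on the list was at 0. Of 4 skeletal muscle markers 2 were tested, Des with log2 fold changes of 0.72 (SE 0.63) with relative and 0.78 (SE 0.35) with spike-in scaling, and Actc1 with 0.76 (SE 0.43) and 0.80 (SE 0.48). Des passed an unadjusted edgeR p of 0.05 in spike-in scaling, and the summed level of the list was 6.99 to 25.6 CPM in WT and 4.02 to 33.98 CPM in Dp1Tyb. The part of these markers in the App difference was not tested, and in these bulk samples fewer cells of a type and less RNA per cell cannot be told apart.

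The 250 bases before the RefSeq start of App and of its relatives Aplp1 and Aplp2 are shown because one of these genes is duplicated and the other members of the family are not. They come from RefSeq (GRCm38.p6), which matched 6 of the 8 genes, and are printed 5′ to 3′ on the gene's own strand. For App the RefSeq start lies inside the gene span given above, which covers 59 of the 250 bases. Capitals mark GC boxes (GGGCGG on either strand).
App, chr16:85173708-85173957, minus strand: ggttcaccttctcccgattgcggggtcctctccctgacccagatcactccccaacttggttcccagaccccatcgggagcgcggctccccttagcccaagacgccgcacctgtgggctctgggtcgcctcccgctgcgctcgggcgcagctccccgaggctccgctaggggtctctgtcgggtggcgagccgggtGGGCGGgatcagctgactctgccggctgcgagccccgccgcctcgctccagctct
Aplp1, chr7:30445583-30445832, minus strand: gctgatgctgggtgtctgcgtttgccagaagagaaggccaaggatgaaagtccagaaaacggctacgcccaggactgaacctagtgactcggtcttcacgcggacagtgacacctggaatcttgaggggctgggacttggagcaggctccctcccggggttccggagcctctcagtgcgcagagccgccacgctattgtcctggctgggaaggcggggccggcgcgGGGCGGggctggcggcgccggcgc
Aplp2, chr9:31211849-31212098, minus strand: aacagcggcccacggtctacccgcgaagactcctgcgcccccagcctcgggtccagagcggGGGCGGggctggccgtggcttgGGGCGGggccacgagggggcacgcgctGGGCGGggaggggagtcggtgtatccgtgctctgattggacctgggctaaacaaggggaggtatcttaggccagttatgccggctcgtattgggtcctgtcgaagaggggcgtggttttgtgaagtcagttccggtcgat
App holds 1 GC box, Aplp1 1 and Aplp2 3, and 32.7% of the 32851 promoters in the table hold at least 1. None of these 3 windows holds the letters TATAAA on either strand, which 12.4% of all promoters hold. The windows are rich in CpG dinucleotides, with 23 in App, 20 in Aplp1 and 22 in Aplp2 against a median of 6, and 13.3% of all promoters hold as many as App. A match to these letters is a description of the window and not a site of binding.

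Aplp2 (ENSMUSG00000031996, minus strand of chr9:31149557-31211815) encodes the broadly expressed relative of APP, and is not duplicated. Its level was 293, 227, 293 and 302 CPM in WT replicates 1 to 4. It was 310.0, 267, 247 and 271 CPM in Dp1Tyb replicates 1 to 4. The groups overlapped, and the log2 fold change was -0.03 (SE 0.12, 95% interval -0.30 to 0.24, edgeR with relative scaling). Aplp1 (ENSMUSG00000006651, minus strand of chr7:30434982-30445535), the family member best known from neurons, was at 8.53 to 11.2 CPM in WT and 10.2 to 11.8 CPM in Dp1Tyb. Its log2 fold change was 0.07 (SE 0.14, edgeR adjusted p = 0.999).

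**Figure D2:**
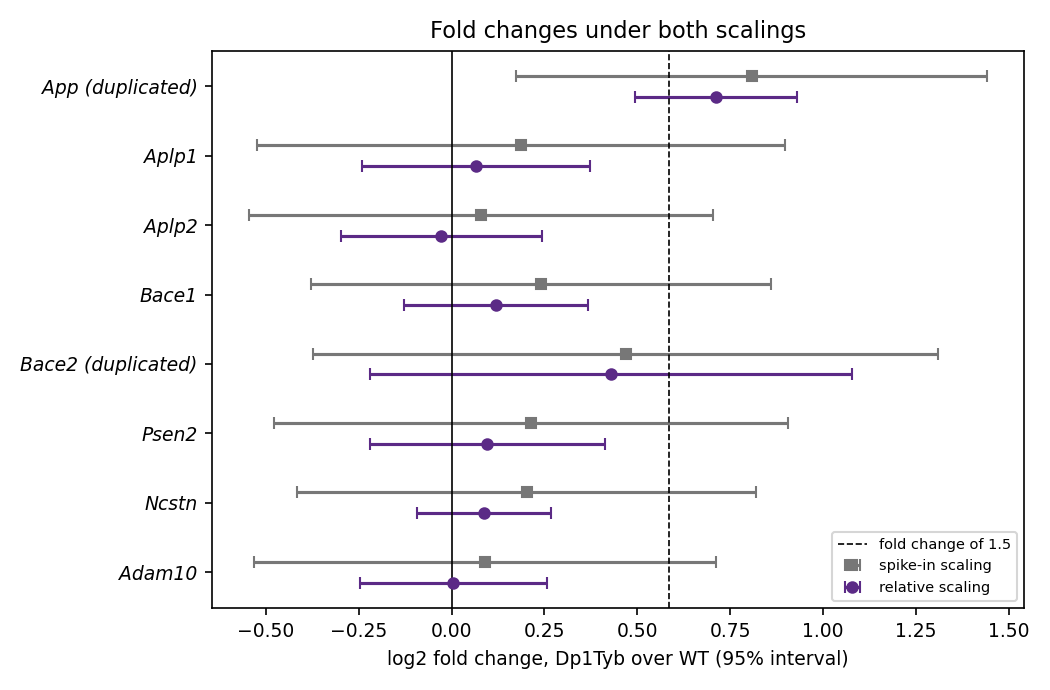
Log2 fold change of each gene between Dp1Tyb and WT with its 95% interval, in spike-in scaling (squares) and relative scaling (circles). The dashed line is a fold change of 1.5. The App interval starts at 0.49 with relative scaling and at 0.17 with spike-in scaling, and the intervals of the other 7 genes include 0.

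Setting App against Aplp2 within each library removes the scaling, since both counts come from the same RNA. The ratio of App to Aplp2 counts was 3.004, 3.66, 2.79 and 2.64 in WT replicates 1 to 4. It was 4.39, 5.32, 5.49 and 4.84 in Dp1Tyb replicates 1 to 4. All Dp1Tyb ratios were above all WT ratios. The log2 ratio was 1.58 ± 0.21 in WT and 2.32 ± 0.15 in Dp1Tyb (SD over 4 libraries each), a difference of 0.73 or 1.66-fold, with a two-sided exact permutation p of 0.0286. This is the smallest p that 4 against 4 libraries can give, and it became 0.0571 when adjusted over the 2 ratios tested. 

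Bace2 (ENSMUSG00000040605, plus strand of chr16:97356742-97442936) encodes a protease related to BACE1 that can also cut APP within the amyloid-beta sequence, and it is duplicated in Dp1Tyb. It had 97, 49, 60 and 51 counts in WT replicates 1 to 4. It had 64, 79, 100 and 68 counts in Dp1Tyb replicates 1 to 4. These were the lowest counts of the set, and the groups overlapped.

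As relative levels, Bace2 was at 4.33, 2.08, 2.84 and 2.48 CPM in WT and at 2.47, 4.56, 4.92 and 3.91 CPM in Dp1Tyb, in the order of the replicate numbers. WT replicate 1 was high and Dp1Tyb replicate 1 was low for their groups. The means were 2.93 ± 0.985 and 3.97 ± 1.08 CPM (SD, n = 4 each). The log2 fold change was 0.43 (SE 0.29, 95% interval -0.22 to 1.08) with relative scaling, with an unadjusted edgeR p of 0.170, and 0.47 (SE 0.43, 95% interval -0.37 to 1.31) with spike-in scaling. The interval holds both no change and the value for 3 copies against 2, so a change of that size was not distinguishable from none with this spread between libraries.

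Counting error alone gave Bace2 a coefficient of variation of 12.8% in WT and 11.5% in Dp1Tyb, and the observed values were 33.6% and 27.2%. For App counting error was 0.742% in WT against an observed 4.199%. The fold change depended on single libraries. The log2 fold change of Bace2 was 0.69 with relative scaling (95% interval 0.068 to 1.30) and 0.87 with spike-in scaling (-0.016 to 1.76) without WT replicate 1. It was 0.61 (0.010 to 1.20) and 0.60 without Dp1Tyb replicate 1, and 0.31 (-0.37 to 0.99) and 0.29 without WT replicate 2. In edgeR the adjusted p missed the threshold in each case.

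Bace1 (ENSMUSG00000032086, plus strand of chr9:45838580-45864399) encodes the main beta-secretase and is not duplicated. Its level was 71.8 to 95.6 CPM in WT and 87.2 to 98.8 CPM in Dp1Tyb. The groups overlapped, with a log2 fold change of 0.12 (SE 0.11, edgeR adjusted p = 0.999). It shares 975 exonic bases with Rnf214 on the opposite strand, and the strand setting of the counting is not given in the sources used here. Rnf214 had a log2 fold change of 0.01 (SE 0.12). Bace1 also shares 135 such bases with Gm16536, which had -0.27 (SE 0.19), and 951 with Gm49338, and App shares 113 with Gm49227. Gm49338 and Gm49227 are not among the 19493 mouse genes in the count table, so they have no value here.

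The log2 ratio of Bace2 to Bace1 was -4.41, -5.51, -4.87 and -4.85 in WT replicates 1 to 4. It was -5.13, -4.27, -4.32 and -4.65 in Dp1Tyb replicates 1 to 4. The groups overlapped, and 2 of 4 Dp1Tyb ratios were above all WT ratios. The difference was 0.32 or 1.24-fold, with a two-sided exact permutation p of 0.343. It was 0.12 without WT replicate 2, 0.21 without Dp1Tyb replicate 2, 0.48 without WT replicate 1 and 0.49 without Dp1Tyb replicate 1.

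**Figure D3:**
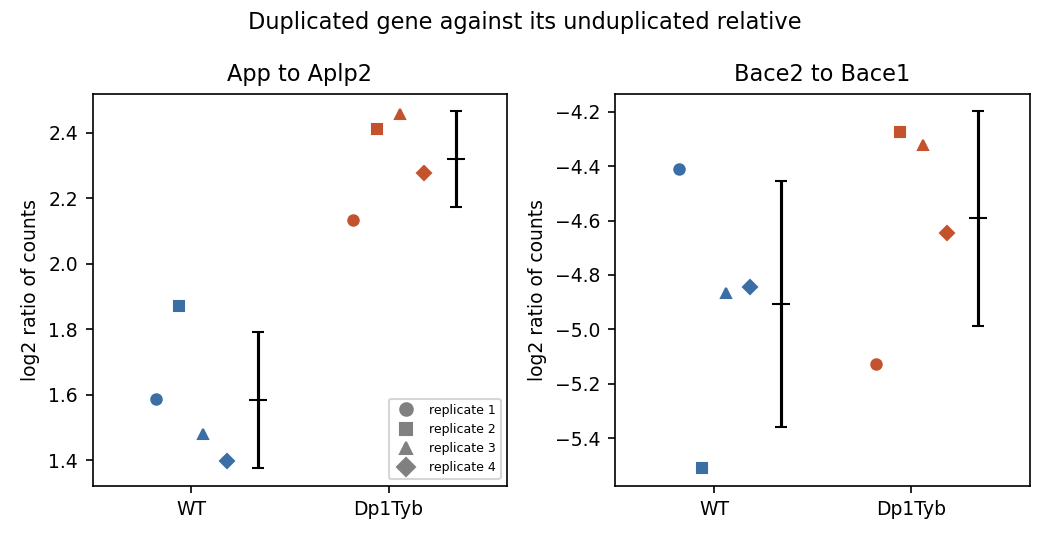
Log2 ratio of counts of App to Aplp2 (left) and of Bace2 to Bace1 (right) in each library, with the mean and SD of 4 libraries. The axes do not start at 0. The App to Aplp2 ratios of the genotypes are separate, with means of 1.58 in WT and 2.32 in Dp1Tyb, and those of Bace2 to Bace1 overlap.

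Psen2 (ENSMUSG00000010609, minus strand of chr1:180227004-180263438) encodes a presenilin, the catalytic subunit of gamma-secretase. It was at 10.3 to 13.1 CPM in WT and 11.8 to 15.4 CPM in Dp1Tyb, with a log2 fold change of 0.10 (SE 0.14, edgeR adjusted p = 0.999). Ncstn (ENSMUSG00000003458, minus strand of chr1:172066013-172082795) encodes nicastrin, the subunit of the complex with the large outer domain. It was at 135 to 147 CPM in WT and 145 to 156 CPM in Dp1Tyb, and its log2 fold change was 0.09 (SE 0.08, edgeR adjusted p = 0.999). Ncstn was the member with the smallest SE, and 3 of 4 Dp1Tyb libraries were above all WT libraries. It shares 195 exonic bases with Copa on the opposite strand, and Copa had a log2 fold change of 0.06 (SE 0.11).

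Adam10 (ENSMUSG00000054693, plus strand of chr9:70678997-70780229) encodes the main constitutive alpha-secretase of APP. Its level was 202 to 241 CPM in WT and 187 to 248 CPM in Dp1Tyb, and the WT range lay inside the Dp1Tyb range. The log2 fold change was 0.00 (SE 0.11, edgeR adjusted p = 0.999). Over the 6 unduplicated members the log2 fold changes with relative scaling ran from -0.03 to 0.12 with a median of 0.08, beside a median of 0.01 over all genes tested. With spike-in scaling they ran from 0.08 to 0.24 with a median of 0.19, beside 0.11 over all genes.

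Levels of different genes were compared per kilobase of exon (RPKM). In WT the order was App (64.0 ± 2.69), Aplp2 (47.5 ± 5.89), Adam10 (44.5 ± 3.56), Ncstn (35.9 ± 1.28), Bace1 (13.5 ± 1.68), Aplp1 (3.44 ± 0.409), Psen2 (2.83 ± 0.311) and Bace2 (0.372 ± 0.125) RPKM (SD, n = 4). The ranges of Aplp2 and Adam10 overlapped, as did those of Aplp1 and Psen2, so these neighbours were not separated by their spread. On all exons App per length was 1.37 ± 0.204 times Aplp2 in WT and 2.26 ± 0.225 times in Dp1Tyb. Bace1 per length was 39.1 ± 12.9 times Bace2 in WT and 31.1 ± 9.06 times in Dp1Tyb, so the duplicated beta-secretase remained the rarer one.

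The scale per length depends on the transcript chosen. All exons of App together span 12996 bases and its principal transcript 3176 bases, and on the principal transcript App was at 262 ± 11.0 RPKM in WT and was 3.46 ± 0.517 times Aplp2 in WT and 5.73 ± 0.569 times in Dp1Tyb. On that scale, added after the data were seen, Ncstn and Adam10 exchanged places, as did Psen2 and Aplp1. App stayed first and Bace2 last.

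Within the duplicated region, of 128 genes with counts, 112 were tested, and their median log2 fold change was 0.54 with relative scaling (quartiles 0.25 and 0.71) and 0.64 with spike-in scaling. The 112 were taken whatever their gene type, non-coding genes included, and some had low counts and changes near or below 0. App ranked 28 of 112 by log2 fold change with relative scaling and 26 with spike-in scaling, and first by counts. Bace2 ranked 73 by log2 fold change with relative scaling, 78 with spike-in scaling, and 78 by counts. By RPKM over all exons in WT, App ranked 3 and Bace2 97 of the 112. On principal transcripts App ranked 1 and Bace2 75 of 84. App took 13.4% ± 0.860 of all counts from the region in WT and 14.6% ± 0.635 in Dp1Tyb (SD, n = 4). This share differed by 1.12 percentage points, with a two-sided exact permutation p of 0.0571, or 0.114 adjusted over App and Bace2. Bace2 took 0.0475% in WT and 0.0428% in Dp1Tyb, with an exact permutation p of 0.686.

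**Figure D4:**
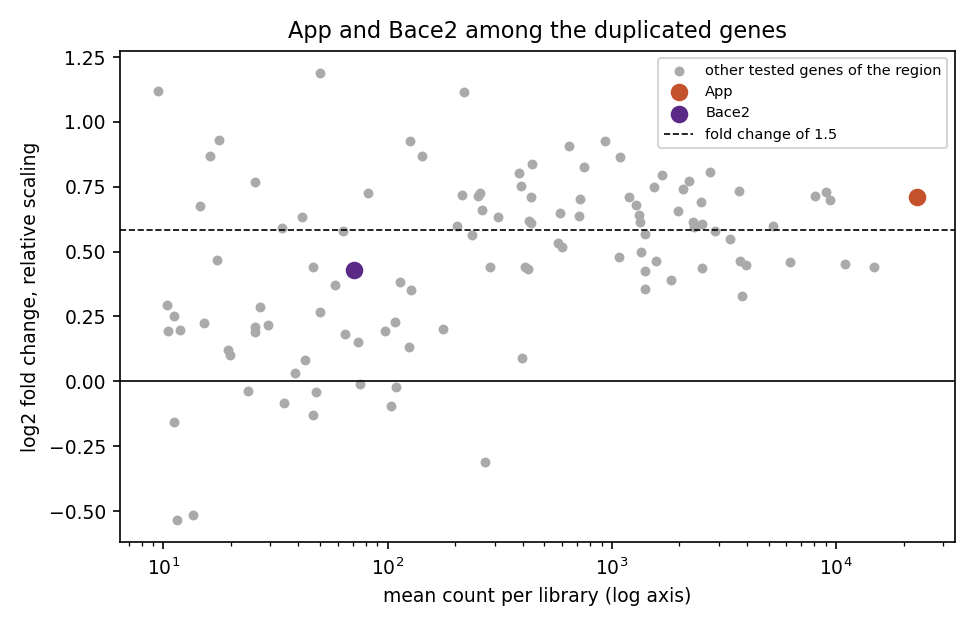
Log2 fold change with relative scaling against mean count per library (log axis) for the 112 tested genes of the duplicated region, with App and Bace2 in colour. The dashed line is a fold change of 1.5. App has the highest count and lies above the line at 0.71, and Bace2 lies below it at 0.43.

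The genes with levels most like App over the 8 libraries, by Pearson correlation of log2 CPM among genes with a mean of at least 100 counts, were Brwd1 (r = 0.99), Ifnar2 (r = 0.98) and Ttc3 (r = 0.97). All 3 are on chromosome 16 inside the duplicated region, so the genotype difference is part of each r. For Bace2 the closest were Atg16l2 (r = 0.96) and Mpv17l (r = 0.94), which lie outside it. For Aplp2 they were Cyp2j6 (r = 0.97), Atp6v1a (r = 0.96) and Sox6 (r = 0.96), also outside it. The points share libraries and scaling, and these values are descriptions.

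Among the 28 pairs of the 8 genes, Aplp2 and Psen2 varied together across libraries. Pearson's r was 0.90 (exact permutation p = 0.000347, adjusted 0.00972 over 28 pairs) and Spearman's rho was 0.95 (exact permutation p = 0.00114, adjusted 0.0319). Within genotypes r was 0.97 with each group's mean removed, and it was 0.71 over the 6 libraries left without those farthest from the median of Aplp2. Aplp2 and Psen2 were both lowest in WT replicate 2 and both highest in Dp1Tyb replicate 1. These are also the only libraries high in Xist, the RNA of the inactive X chromosome. Xist was at 1535 and 1503 CPM in them, against 0.519 to 3.45 CPM in the other 6. They also held the lowest levels of Ddx3y, a gene of the Y chromosome, in their genotypes, at 0.297 and 0.155 CPM. The part of these genes in the relation was not tested. Bace2 was also lowest of its genotype in each of these libraries, at 2.08 and 2.47 CPM, and the part of Xist there was not tested. Psen2 and Adam10 ran the other way, with r = -0.81 (exact permutation p = 0.0154, adjusted 0.215), which did not pass the correction.

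**Figure D5:**
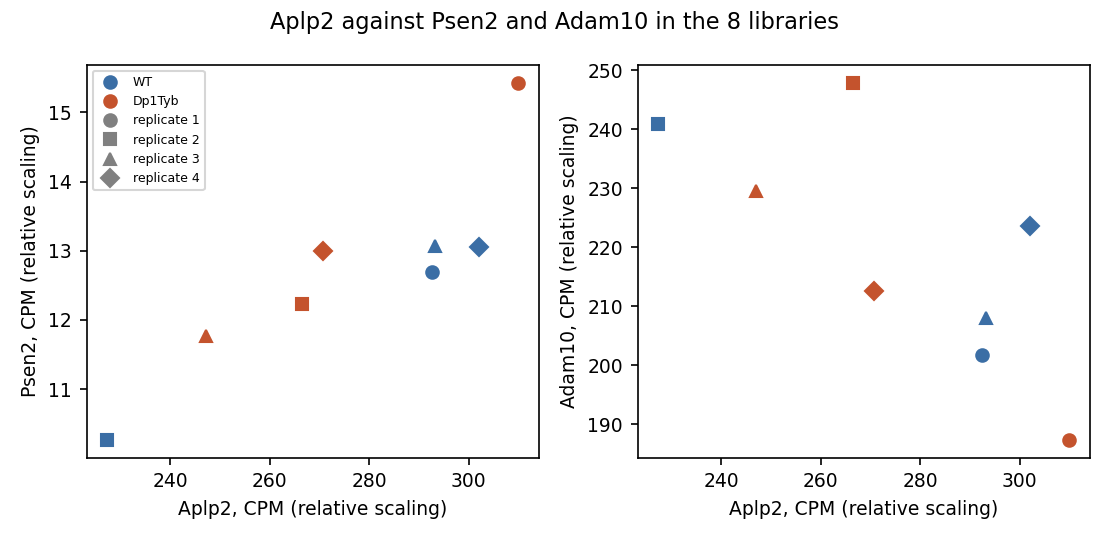
Level of Psen2 (left) and Adam10 (right) against Aplp2 in the 8 libraries, in CPM with relative scaling. The axes do not start at 0. Aplp2 and Psen2 are both lowest in WT replicate 2, at 227 and 10.3 CPM, and both highest in Dp1Tyb replicate 1, at 310.0 and 15.4 CPM.

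The rest of the pathway was read from lists of 50 genes that include the 8, of which 49 had counts and were tested. Outside the 8 genes, 0 of 41 passed in edgeR after adjustment and 0 at an unadjusted p under 0.05, under both scalings, and none had groups that did not overlap. Beside the shares of 4.27% and 1.17% at that p over all genes, and of 1.64% higher and 1.52% lower without overlap with relative scaling, a count of 0 among 41 is near the background. This count and these shares are from the main fits. With a replicate block, 1601 of 16470 genes passed that p with relative and 499 with spike-in scaling. Of these 41, 23 had a positive log2 fold change with relative scaling, where 51.2% of all genes did, and the median was 0.02. All 7 gamma-secretase subunits, with a summed level of 336 to 367 CPM in WT and 363 to 393 CPM in Dp1Tyb, and all 3 alpha-secretases were without a call.

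None of the most abundant genes per length of the other lists passed the test. Adam9, a metalloprotease able to cut APP, had a log2 fold change of 0.08 (SE 0.11). Timp3, an inhibitor of metalloproteases, had 0.33 (SE 0.22), the largest value of these. Lrp1, an endocytic receptor that binds APP, had -0.02 (SE 0.19), Shc1, an adaptor, 0.04 (SE 0.15), and Apoe, a lipid carrier that binds amyloid-beta, -0.21 (SE 0.16), all in edgeR with relative scaling.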

How the data were processed

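RNA of 4 WT and 4 Dp1Tyb MEF cultures was sequenced with ERCC spike-ins. The deposited values used are raw counts per gene, made by the authors with Trim Galore, TopHat2 2.0.12 on GRCm38 and HTSeq, with reads aligning to several places discarded (submitters' notes and methods). The annotation release and strand setting are not given in the sources used here. A table of normalised values and one of the authors' own fold changes and p-values from DESeq2 1.6.3 were not used.

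Counts were tested in edgeR 4.0.16 (quasi-likelihood, filterByExpr, 16470 genes) with spike-in factors (median of ratios) or TMM on mouse genes, and p-values were adjusted over all genes by Benjamini-Hochberg. DESeq2 1.42.0, other factors and filters, another threshold and pseudocount, a replicate block and leaving out each library were alternatives. Exact permutation tests enumerated 70 assignments for differences between genotypes and 40320 orders for correlations, and ratios used a pseudocount of 0.5. Scripts were tested on simulated data. Intervals are 95% intervals. The members and gene lists were chosen with earlier results of these data known. Named genes were the 8 members, the most abundant gene per length of each list, overlapping genes, and the 3 genes most like App, Aplp2 and Bace2, of which 1 is not reported here. Ptprc, Aif1, Des, Actc1, Xist and Ddx3y were named after their values were seen. As a check for repeated deposits of a library, counts of libraries of one genotype were compared against counting error alone (chi-square per degree of freedom 10.4 to 95.7), and each was kept as its own sample. The labels do not say that each library came from its own embryo, so p-values measure the spread between these samples.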

Additional observations from a re-analysis of the deposited data

Results flagged for a closer look

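In 3 of 36 groups of 4 libraries, the gap between 1 library and the nearest of the others exceeded Dixon's 95% critical value for the share of the group's range, where chance gives about 1 in 20. Aplp1 was at 8.53 CPM in WT replicate 1, below the other WT libraries. Aplp2 was at 227 CPM and Psen2 at 10.3 CPM in WT replicate 2, each below the other WT libraries.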

How the results depend on the processing

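With spike-in scaling 2 genes were called in edgeR, against 9 with a replicate block and 0 with at least 10 counts in every library (156 at an unadjusted p under 0.05), and DESeq2 called 2. Leaving out each library gave 2 to 8. With relative scaling 3 were called, against 8 at an adjusted p of 0.1, 54 in DESeq2, 7 with the block and 0 with at least 10 counts in every library (622 at an unadjusted p under 0.05), and leaving out any library gave 1. At an unadjusted edgeR p under 0.05, 192 genes passed with spike-in scaling, against 499 with the block and 120 to 539 without each library. With relative scaling 703 passed, against 1601 with the block and 439 to 925 without each library. The cause was not tested.

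The log2 fold change of App with relative scaling was 0.72 in DESeq2, which made the call, and 0.69 to 0.74 without each library. Its adjusted p over all alternatives ran from 2.46e-16 to 0.599, and with spike-in scaling the value was 0.67 to 0.96 without each library. The App to Aplp2 difference of 0.73 had an exact p of 0.125 in the replicate block, the smallest that 4 pairs allow. Adam10 with relative scaling was -0.041 with upper-quartile factors. Leaving out each library, the sign turned for Aplp2 (-0.050 to 0.26) and Adam10 (-0.055 to 0.22) with spike-in scaling, and for Aplp1 (-0.012 to 0.11), Aplp2 (-0.10 to 0.024) and Adam10 (-0.059 to 0.074) with relative scaling. Bace2 kept its sign, at 0.31 to 0.69 with relative scaling and 0.29 to 0.87 with spike-in scaling.

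Same-numbered libraries deviated together with correlations of 0.37, 0.52, 0.03 and 0.33. WT replicates 1, 2 and 4 each correlated best with their own number. WT replicate 3 did not, with 0.03 against 0.32 for Dp1Tyb replicate 4. These values do not settle whether the numbers are pairs. The main tests did not take them as pairs, and the replicate block did.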
